A study of Mus musculus with 6 samples.

Results

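Intermediate filaments are the rope-like part of the cytoskeleton, and the genes described here are 7 of them: the simple keratins Krt7, Krt8, Krt18 and Krt19, and Vim (vimentin), Nes (nestin) and Des (desmin). They were chosen by name as a gene family, with earlier results of these data known. All 7 were found among the 48440 genes of the count table. The cells were mouse ovarian surface epithelial cells, the thin layer that covers the ovary, sequenced 7 days after adenoviral transduction. The 3 control libraries came from cells given a virus carrying GFP (Ad-GFP, genotype label WT), and the 3 others from cells given Cre recombinase with GFP (Ad-Cre-GFP, genotype label Lats1/2 knockout). LATS1 and LATS2 are the core kinases of the Hippo pathway, and the series asks what their loss does to the transcriptome. Cells of all 6 libraries received an adenovirus and GFP. Cre exposure and deletion coincide and cannot be told apart. Neither the engineered alleles nor the mouse strain, the origin of the control cells or any pooling of animals is stated in the labels.

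Keratin filaments are built from pairs of 1 acidic (type I) and 1 basic (type II) chain, so a cell needs both types. Krt8 (type II) with Krt18 (type I) is the founding pair of simple epithelia, Krt7 is a second type II chain of ducts and mesothelium, and Krt19 is a type I chain without the usual tail domain. Vimentin and desmin are type III proteins that can form filaments alone, of mesenchymal and of muscle cells respectively, and nestin is a large protein of progenitor cells that assembles together with vimentin or desmin. Ovarian surface epithelium and mesothelium are known for carrying simple keratins and vimentin in the same cell.

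Libraries held 18690235 to 30304033 counts, more in each Ad-Cre-GFP library than in any control. The targeted genes lay at 23.3% (Lats1) and 76.2% (Lats2) of control in Ad-Cre-GFP libraries. Genes were tested with edgeR's quasi-likelihood test and called where p, adjusted by Benjamini-Hochberg, was under 0.05. This called 69.8% of the 14811 tested genes. With so many calls, a call by itself says little about a gene, and sizes are given throughout. Levels are counts per 1000000 (CPM) scaled with TMM factors, means are given ± SD of 3 libraries, and log2 fold changes (± SE) compare Ad-Cre-GFP with Ad-GFP, positive where the former is higher. The labels do not say that replicates were separate cultures, so p-values reflect only how far these libraries vary, possibly for technical reasons.

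Of the 7 genes, 6 had enough counts to test, each in both groups, and all 6 were called. Krt7, Krt18, Vim and Nes rose and Krt8 and Krt19 fell, against a background of 34.0% of tested genes higher and 35.8% lower. The groups did not overlap for any of the 6, as for 73.0% of all tested genes. Krt7, Krt19 and Nes, 3 of the 6, were called with a change of 2-fold or more, as were 13.8% of all tested genes. The median log2 change of the 6 was 0.23, beside -0.01 for all tested genes, and it hides a range from -1.60 to 1.39.

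**Figure D1:**
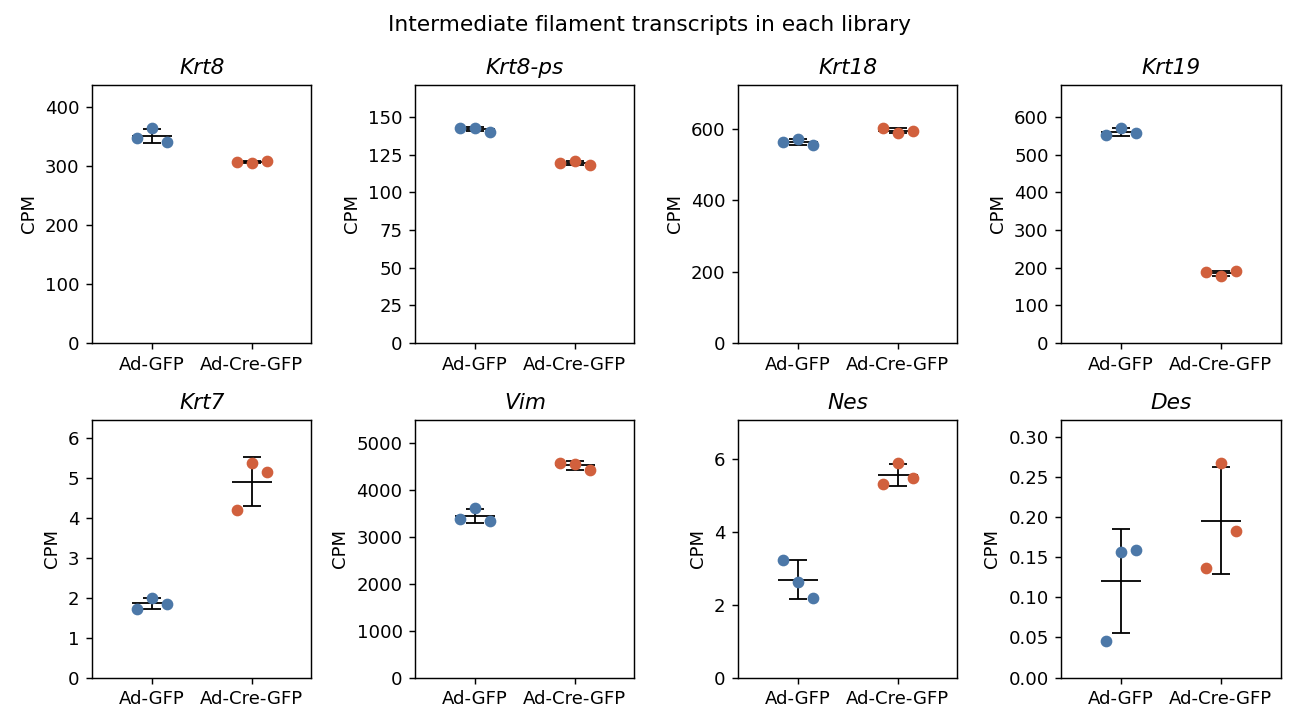
TMM-scaled CPM (vertical axes, linear, from 0) of the 7 genes and of the pseudogene Krt8-ps in the 3 Ad-GFP libraries (blue) and the 3 Ad-Cre-GFP libraries (orange); points are libraries and bars the mean ± SD. Krt19 fell from 559.8 to 185 CPM while Krt18 differed little, at 564 and 596 CPM, and the Des libraries, with 1 to 8 counts each, overlap.

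Krt8 and Krt18, the partner chains, stayed close to their control levels and moved apart slightly. Krt8 (chromosome 15, 101996698 to 102004482, minus strand, GRCm38) stood at 347, 364 and 340 CPM in Ad-GFP replicates 1 to 3 and at 306, 305 and 309 CPM in Ad-Cre-GFP replicates 1 to 3. Every Ad-Cre-GFP library lay below every control, and the fall was -0.19 ± 0.03 (adjusted p = 8.89e-06), a level of 87.5% of control. Among all tested genes, 69.1% changed by more than Krt8.

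Krt18 (chromosome 15, 102028180 to 102032027, plus strand) stood at 564, 574 and 554 CPM in the controls and at 603, 590 and 594 CPM in the Ad-Cre-GFP libraries. The groups were separate by a narrow gap, and the rise was 0.08 ± 0.03 (adjusted p = 0.0184). With library totals in place of TMM factors it was 0.04 and no longer called (adjusted p = 0.182). Leaving out replicate 1 of the controls also ended the call (adjusted p = 0.0658), as did leaving out replicate 1 of Ad-Cre-GFP (adjusted p = 0.0578).

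Krt8 has a near-identical copy in the genome. Krt8-ps, a processed pseudogene on chromosome 7 (23357125 to 23358069), matches the Krt8 transcript over 941 bases at 98.6% identity, and 27.8% to 29.2% of the summed counts of both genes were assigned to it in the 6 libraries. The labels do not say how reads that fit both were assigned, and the level of Krt8 alone is uncertain. Krt8-ps moved like Krt8, from 142 ± 1.32 to 119.8 ± 1.35 CPM (-0.25 ± 0.03, adjusted p = 2.77e-07). Summed, the pair fell from 492 ± 13.3 to 426 ± 0.617 CPM (-0.21 ± 0.03, adjusted p = 1.79e-06), close to the change of Krt8 alone. The closest copy of Krt18, the pseudogene Gm5200, held 0 counts, and no copy of at least 200 bases at 90% identity was found for Krt7, Krt19, Vim or Nes.

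The ratio of Krt8 to Krt18 transcripts was lower in every Ad-Cre-GFP library than in every control. Counts were divided by exon length for this, since levels of different genes compare only per length. The ratio was 0.452, 0.466 and 0.450 in the controls and 0.373, 0.379 and 0.381 in the Ad-Cre-GFP libraries. With Krt8-ps counted as Krt8 it was 0.641 ± 0.00666 and 0.525 ± 0.00625. The log2 difference for Krt8 alone was -0.27 (exact two-sided permutation test, p = 0.1, the smallest that 3 against 3 libraries can give).

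Krt8 and Krt18 start 23.7 kb apart and point away from each other, and Krt18 is the only type I keratin annotated on chromosome 15 in this table. The RefSeq promoter table (GRCm38.p6) matched 6 of the 7 genes, all but Krt19. The windows of the pair are shown because these partner genes are neighbours that changed in opposite directions; each runs from 250 bases before the RefSeq start to 30 bases from the start on. Short motifs were searched in them. CATTCC, the core that TEAD factors bind, was searched on both strands. So were TGANTCA, the site of AP-1, and GGGCGG, the GC box of SP and KLF factors. The CCAAT box was searched on both strands too, and the TATA box, spelled TATAAA, on the given strand. Capitals mark matches.
Krt8 (chr15:102004313-102004592, minus strand): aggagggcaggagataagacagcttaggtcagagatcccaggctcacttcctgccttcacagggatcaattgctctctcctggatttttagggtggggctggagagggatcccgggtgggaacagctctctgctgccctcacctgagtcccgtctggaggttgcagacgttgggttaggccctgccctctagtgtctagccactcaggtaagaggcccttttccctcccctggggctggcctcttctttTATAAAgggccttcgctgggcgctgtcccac
Krt18 (chr15:102027966-102028245, plus strand): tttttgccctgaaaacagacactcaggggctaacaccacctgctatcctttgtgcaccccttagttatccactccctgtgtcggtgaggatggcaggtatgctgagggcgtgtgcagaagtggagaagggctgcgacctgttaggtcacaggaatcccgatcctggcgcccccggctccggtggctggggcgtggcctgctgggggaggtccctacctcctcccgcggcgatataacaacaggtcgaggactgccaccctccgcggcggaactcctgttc
The Krt8 window held TATAAA across the RefSeq start and the Krt18 window none of these letters. TATAAA occurred in 7.98% of 32541 promoter windows of this length. CATTCC, present in 13.9% of windows, and TGANTCA, in 7.45%, were in none of the 6 matched windows, which says only that these letters are not in these bases.

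Krt19 had the largest change of the simple keratins. It lies on chromosome 11 (100140810 to 100148665, minus strand) and stood at 552, 571 and 557 CPM in the controls. In the Ad-Cre-GFP libraries it stood at 187, 178 and 191 CPM, with a wide gap between the groups. The fall was -1.60 ± 0.03 (adjusted p = 1.62e-20), to 33.1% of control, and 6.25% of tested genes changed by more. Per length, Krt19 was at 0.769 ± 0.0106 of Krt18 in controls and at 0.241 ± 0.00804 in Ad-Cre-GFP libraries, a log2 difference of -1.68 without overlap (exact permutation test, p = 0.1, the smallest possible). Of these type I chains Krt18 was thus the more abundant per length in all 6 libraries, by a wider margin in the Ad-Cre-GFP ones. In controls this order rests on the exon lengths used, since Krt18 and Krt19 stood at nearly equal CPM (564 ± 9.64 and 559.8 ± 9.96).

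Krt7 was the rarest simple keratin and rose. Its counts were 38, 51 and 35 in the controls and 123, 161 and 141 in the Ad-Cre-GFP libraries. This is 1.73, 1.995 and 1.86 CPM against 4.21, 5.39 and 5.15 CPM. All Ad-Cre-GFP libraries were above all controls, and the rise was 1.39 ± 0.15 (adjusted p = 3.01e-08). Krt7 (chromosome 15, 101411043 to 101430313, plus strand) is the type II chain often paired with Krt19, and the 2 genes moved in opposite directions. Its promoter window is shown because it was the one keratin window with GC boxes, 4 in all, a motif found in 34.9% of windows.
Krt7 (chr15:101412153-101412432, plus strand): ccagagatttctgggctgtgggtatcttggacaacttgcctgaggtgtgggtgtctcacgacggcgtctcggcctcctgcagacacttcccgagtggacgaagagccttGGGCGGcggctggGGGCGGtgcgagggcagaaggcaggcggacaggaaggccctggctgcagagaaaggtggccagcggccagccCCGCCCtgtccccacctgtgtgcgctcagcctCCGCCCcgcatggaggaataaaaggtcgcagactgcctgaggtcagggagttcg

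The balance of chain types was tilted less towards type I in the Ad-Cre-GFP libraries. Krt7 and Krt8 together, per length, were 0.258 ± 0.00487 of Krt18 and Krt19 together in controls and 0.306 ± 0.00377 in Ad-Cre-GFP libraries (log2 difference 0.24, no overlap, exact permutation test, p = 0.1). With Krt8-ps counted as Krt8, the ratios were 0.363 ± 0.00417 and 0.425 ± 0.00609. Taken over all keratins of each type, they were 0.210 ± 0.00360 and 0.265 ± 0.00244. By any of these counts type I transcripts outnumbered type II transcripts in all 6 libraries.

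Vim was the most abundant of the 7 genes and rose moderately. It lies on chromosome 2 (13573927 to 13582826, plus strand) and stood at 3384, 3623 and 3343 CPM in the controls and at 4578, 4558 and 4418 CPM in the Ad-Cre-GFP libraries. The lowest Ad-Cre-GFP library was well above the highest control, and the rise was 0.39 ± 0.03 (adjusted p = 7.78e-10), or 1.31-fold. That is an ordinary size for this comparison, since 45.5% of tested genes changed by more. Per length, Vim ranked 69th of 14811 tested genes by its control mean and 46th by its Ad-Cre-GFP mean. Both ranks rest on the exon lengths used. Its promoter window is shown as that of the most abundant gene here, and it held a TATA box and CCAAT boxes on both strands, a motif in 36.0% of windows.
Vim (chr2:13574061-13574340, plus strand): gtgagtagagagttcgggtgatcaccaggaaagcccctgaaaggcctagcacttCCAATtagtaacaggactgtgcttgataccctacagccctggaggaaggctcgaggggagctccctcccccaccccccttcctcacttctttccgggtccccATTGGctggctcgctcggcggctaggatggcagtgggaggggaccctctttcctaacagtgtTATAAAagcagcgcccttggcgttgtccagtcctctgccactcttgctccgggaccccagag

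The ratio of keratin to vimentin transcripts was lower in the Ad-Cre-GFP libraries. Per length, the 4 simple keratins summed to 1.22, 1.17 and 1.22 times Vim in the controls and to 0.702, 0.690 and 0.724 times Vim in the Ad-Cre-GFP libraries. The groups did not overlap, and the log2 difference was -0.77 (exact permutation test, p = 0.1, the smallest possible). The ratios themselves, and whether keratins or Vim came out higher in controls, depend on the lengths used. The difference was -0.82 with the longest annotated transcript of each gene. Of the per-length counts of all 7 genes, Vim took 45.4% ± 0.585 in controls and 58.6% ± 0.593 in Ad-Cre-GFP libraries. The share of Krt19 went from 18.9% ± 0.312 to 6.15% ± 0.257 and that of Krt8 from 11.2% ± 0.0642 to 9.63% ± 0.154. Krt18 held 24.5% ± 0.382 and 25.5% ± 0.219. These shares depend on the lengths used too: for Vim the exon length was 4743 bases, while its longest transcript has 2926. The shares are of RNA from whole cultures, in which fewer cells of a type and less RNA per cell cannot be told apart.

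**Figure D2:**
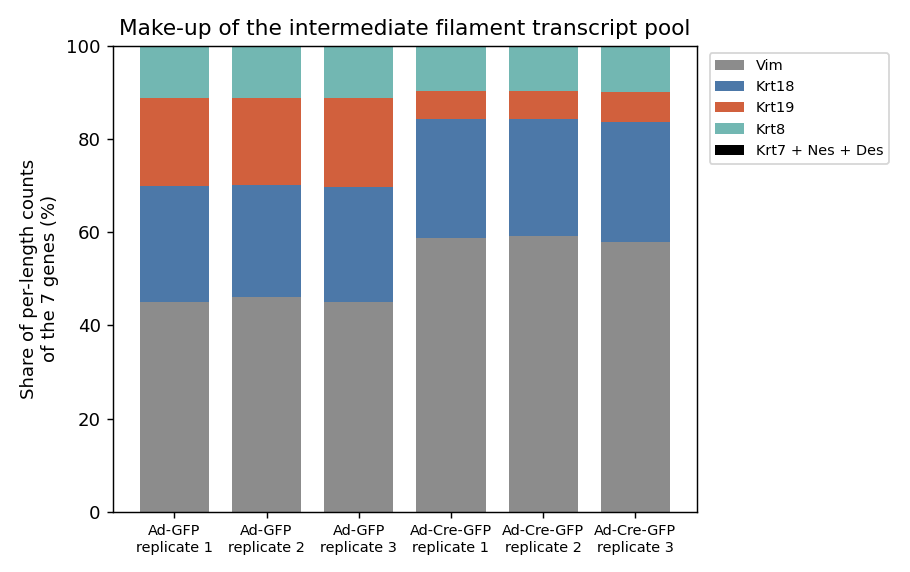
Share (%, vertical axis) of each gene in the per-length counts of the 7 genes, for the 3 Ad-GFP and 3 Ad-Cre-GFP libraries (bars). Vim took 45.4% in controls and 58.6% in Ad-Cre-GFP libraries and Krt19 took 18.9% and 6.15%, while Krt7, Nes and Des together are too small a share to see. The shares depend on the exon lengths used.

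Nes and Des, the genes of progenitor and muscle filaments, were near the bottom of the range. Nes (chromosome 3, 87971078 to 87980451) had 71, 67 and 41 counts in the controls and 155, 176 and 150 in the Ad-Cre-GFP libraries, or 3.24, 2.62 and 2.17 against 5.30, 5.89 and 5.48 CPM. The controls varied more than the others, with Ad-GFP replicate 3 the lowest, but no library crossed over. The rise was 1.04 ± 0.14 (adjusted p = 5.51e-07), and without Ad-GFP replicate 3 it was 0.93. As TPM (counts per length, scaled to a sum of 1000000 in each library), Nes stood at 1.08 ± 0.221 in controls and 2.19 ± 0.120 in Ad-Cre-GFP libraries, against 1880 ± 65.6 and 2404 ± 55.2 for Vim.

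Des (chromosome 1, 75360329 to 75368579) was left out of the test for low counts. It had 1, 4 and 3 counts in the controls and 4, 8 and 5 in the Ad-Cre-GFP libraries, and the groups overlapped as CPM. The ratio of Ad-Cre-GFP to control was 1.63 (95% exact binomial interval 0.666 to 4.36, counting error only), so a difference was not detectable at this depth. Without the low-count filter edgeR gave an adjusted p of 0.469.

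By level per length the order in controls was Vim, Krt18, Krt19, Krt8, Nes, Krt7 and Des. The place of Krt18 above Krt19 in controls rests on the exon lengths used. In Ad-Cre-GFP libraries Krt8 stood above Krt19, at 395 ± 1.49 against 252 ± 8.82 TPM, while in controls it was 462 ± 12.5 against 780 ± 6.08. Nes and Krt7 were neighbours in both groups. Nes was above Krt7 in each library, at 0.878 to 1.32 against 0.641 to 0.724 TPM in controls and at 2.09 to 2.32 against 1.51 to 1.93 TPM in Ad-Cre-GFP libraries, an order that rests on the exon lengths used.

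The other keratins were mostly near or at 0. Of 50 further keratin genes, 22 had 0 counts in all libraries and 7 were tested. Of these 7, 1 rose and 6 fell, beside 34.0% higher and 35.8% lower over all tested genes. Among the 6, 3 passed the filter on low counts through the controls alone. The median log2 change of the 7 was -0.77 and gives no support, for that reason. Krt14, a type I chain of basal and stratified epithelia, was the one at a level like Krt8, Krt18 and Krt19. It stood at 286, 296 and 278 CPM in controls and 165, 168 and 172 CPM in Ad-Cre-GFP libraries, without overlap (-0.77 ± 0.03, adjusted p = 3.02e-15). Its usual type II partner Krt5 had 4 counts in all 6 libraries together.

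Krt80, a type II chain, rose from 16.5 ± 1.25 to 31.8 ± 1.35 CPM (0.94 ± 0.06). Krt10 fell from 4.95 ± 0.401 to 3.36 ± 0.286 CPM (-0.57 ± 0.12) and Krt16 from 3.37 ± 0.437 to 2.04 ± 0.638 CPM (-0.73 ± 0.19). The 3 genes that passed through the controls alone were at trace levels in Ad-Cre-GFP libraries and had to differ to be tested. Krt13 went from 410 counts in all controls to 9 in all Ad-Cre-GFP libraries, 59.4-fold lower (95% exact binomial interval 31.0 to 131). Krt15 went from 120 to 7 counts (22.4-fold, 10.5 to 56.8) and Krt79 from 75 to 9 (10.9-fold, 5.43 to 24.7). The intervals of these 3 genes cover counting error only and leave out variation between libraries.

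By position, Krt19 lies among type I genes, of which those tested fell with it. Type I keratins other than Krt18 sit in a cluster on chromosome 11, where 6 of 26 were tested. The 6 tested, Krt10, Krt13, Krt15, Krt19, Krt14 and Krt16, all fell, beside 35.8% of all tested genes. They span 864 kb. Of these, Krt10, Krt14, Krt16 and Krt19 passed the filter in both groups. Counted from the start of Krt19, Krt15 starts at -12.7 kb, Krt13 at -27.1 kb and Krt14 at 58.9 kb. On chromosome 15 the 4 tested type II genes went both ways: the neighbours Krt80 and Krt7 rose, and Krt79 and Krt8 fell. This arrangement was looked at after the values were seen and is a description. Counts of paralogs such as Krt14, Krt16 and the barely detected Krt17 are uncertain as far as reads fit several of them.

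**Figure D3:**
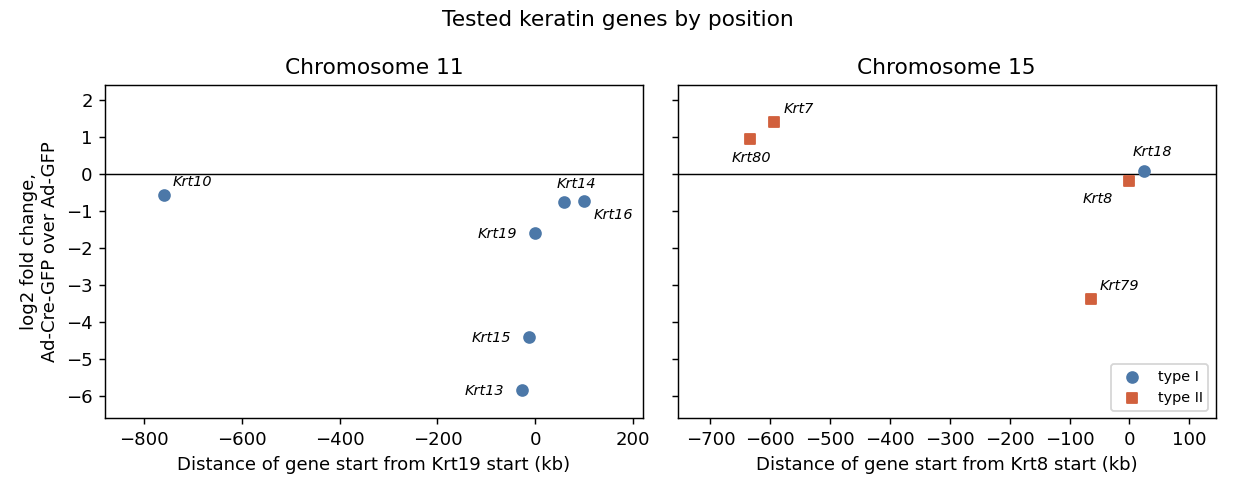
log2 fold change (vertical axis, Ad-Cre-GFP over Ad-GFP) of the 11 tested keratins against the distance in kb of their start from that of Krt19 on chromosome 11 (left) and of Krt8 on chromosome 15 (right); circles are type I and squares type II. All 6 genes on chromosome 11 are below 0, and the genes on chromosome 15 lie on both sides of it.

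Of 12 filament genes outside the keratins, 6 were tested, 4 rose and 2 were not called, with a median log2 change of 0.65. The share called was near the 69.8% of all tested genes, of which 34.0% were higher. Nefh, among the 4, passed the filter through the Ad-Cre-GFP libraries alone. The nuclear lamins differed: the B-type genes Lmnb1 (112 ± 10.4 to 186 ± 3.30 CPM, 0.74 ± 0.05) and Lmnb2 (52.0 ± 2.44 to 77.5 ± 2.32 CPM, 0.57 ± 0.04) rose. Lmna, the A-type lamin, was at 711 ± 45.9 and 687 ± 12.5 CPM (-0.05 ± 0.04, adjusted p = 0.261), but without Ad-GFP replicate 3 it was called lower (-0.10, adjusted p = 0.00537). Synm (synemin), which joins vimentin and desmin filaments, had 22, 20 and 23 counts in the controls and 81, 83 and 93 in the Ad-Cre-GFP libraries (1.59 ± 0.20). The neurofilament gene Nefh had 3, 7 and 11 against 37, 34 and 23 counts (1.76 ± 0.36). Ina, another neuronal filament gene, was at 0.681 ± 0.192 and 0.779 ± 0.202 CPM (0.22 ± 0.30, adjusted p = 0.527).

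**Figure D4:**
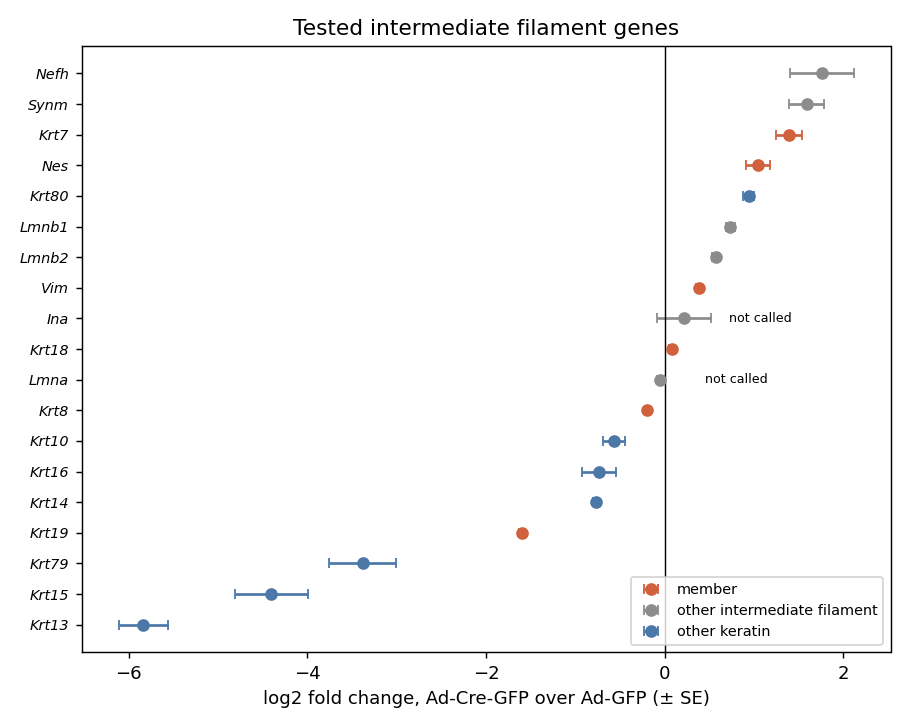
log2 fold change ± SE (horizontal axis, Ad-Cre-GFP over Ad-GFP) of all 19 tested intermediate filament genes: the 6 tested genes described here (orange), other keratins (blue) and other intermediate filament genes (grey). Krt13, Krt15 and Krt79 lie lowest, at -5.84 to -3.38, and Ina and Lmna were not called.

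Among proteins that anchor filaments, 15 cytolinker and desmosomal genes, 11 were tested, 8 rose, 1 fell and 2 were not called. Over all tested genes 34.0% rose and 35.8% fell. The median log2 change of the 11 was 0.37, beside -0.01 for all tested genes. Macf1, a giant linker of actin and microtubules, rose from 437 ± 10.6 to 899 ± 12.4 CPM (1.04 ± 0.03). Dsp (desmoplakin), which ties keratin filaments to desmosomes, rose from 2.66 ± 0.584 to 9.75 ± 0.526 CPM (1.89 ± 0.13), and the desmosomal cadherin Dsg2 rose by 0.80 ± 0.03. Jup (plakoglobin), which sits between those cadherins and desmoplakin, was the one to fall, from 365 ± 4.54 to 231 ± 2.28 CPM (-0.66 ± 0.03).

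Chaperones and kinases of filament proteins went both ways. Of 14, 13 were tested, 8 rose, 3 fell and 2 were not called, with a median log2 change of 0.27, beside 34.0% higher, 35.8% lower and a median of -0.01 over all tested genes. Cryab, the small heat-shock protein that binds desmin and vimentin, rose from 242 ± 5.79 to 327 ± 4.55 CPM (0.44 ± 0.03). The kinase genes Pak1 (-0.69 ± 0.05) and Cdk5 (-0.62 ± 0.05) and the co-chaperone Bag3 (-0.47 ± 0.03) fell. The mitotic kinases Aurkb, Plk1 and Cdk1, which phosphorylate vimentin in dividing cells, were among those that rose.

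The genes whose profile over the 6 libraries was most like a member's were ranked by the root mean square difference of centred log2 CPM, among 9974 genes of at least 5 CPM. For Krt19 they were Fam162a (0.0308), Ndrg1 (0.0390) and Dhrs7 (0.0426). For Vim they were Yars, Polr1d and Nde1 (0.0113 to 0.0161), for Krt8 Ubl7 and Dctn2 (0.0117 and 0.013), and for Krt18 Ktn1, Rpl36a-ps2 and Hsp90ab1 (0.0112 to 0.0120). Krt7 and Nes were below that level. With 6 libraries in 2 groups, likeness mostly means a fold change of the same size.

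Markers of the labelled cell type were present. With keratins left out, 8 markers of ovarian surface epithelium and mesothelium were summed. The sums were 1641 to 1668 CPM in controls and 1884 to 1897 CPM in Ad-Cre-GFP libraries. Their largest parts were Msln, at means of 413 and 887 CPM, and Upk1b, at 422 and 584 CPM. Wt1, Bnc1 and Gata4 fell, so the higher sum does not hold for each marker. Of the 8, 3 rose, among them Msln (1.10 ± 0.03), and 4 fell, among them Gata4 (-1.37 ± 0.03). The background for all marker lists was 34.0% of tested genes higher and 35.8% lower. Lhx9, at 5 to 15 counts per library, and Lrrn4, at 4 to 13, were barely detected. Lhx9 was among the 4 that fell and passed the filter through the controls alone. Markers of other cells that carry these filaments were summed beside these 8. Smooth muscle and pericyte markers went from 413 to 516 CPM in controls to 1413 to 1455 CPM; this sum was almost all Acta2, at 464 ± 55.0 and 1421 ± 23.0 CPM, and all 4 tested of 7 rose, Cnn1 and Notch3 having passed the filter through Ad-Cre-GFP libraries alone. Stromal fibroblast markers, whose cells are rich in vimentin, went from 111 to 118 CPM in controls to 23.7 to 27.6 CPM. All 4 tested of 5 fell, Pdgfra and Dpt having passed through controls alone, Dcn by -1.91 ± 0.05 and Col15a1 by -4.30 ± 0.16, and Lum had 0 counts.

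Endothelial markers summed to 0.107 to 0.473 CPM in controls and 2.13 to 2.61 CPM in Ad-Cre-GFP libraries; Kdr was the one tested, passed the filter through the Ad-Cre-GFP libraries alone and had 4 counts in all controls and 173 in all Ad-Cre-GFP libraries, and Tie1 had 0 counts. Immune markers summed to 11.1 to 13.4 CPM in controls and 6.53 to 7.14 CPM in Ad-Cre-GFP libraries, with Cd14 the one called (-1.23 ± 0.11) and Adgre1 at 0. Neural and glial markers lay at 0.828 to 1.16 and 0.938 to 1.02 CPM with Sox2 at 0, and the skeletal muscle markers summed to 0.118 to 0.279 and 0.101 to 0.297 CPM with Myod1 and Myog at 0. Oviduct markers were at 3.43 to 4.60 and 2.64 to 2.94 CPM. Most of this was Ovgp1, at 2.36 ± 0.389 and 2.55 ± 0.147 CPM, which was not called (0.13 ± 0.16, edgeR adjusted p = 0.498). Epcam, which passed the filter through the controls alone, had 106 counts in all controls and 11 in all Ad-Cre-GFP libraries, and Cldn4 was at 0. Granulosa markers were at 3.26 to 3.85 and 2.99 to 4.08 CPM, where Inha fell (-1.52 ± 0.20), Amh rose (1.17 ± 0.21), and Fshr and Cyp19a1 were at 0. The part of any other cell type in the changes of Vim, Nes and the keratins was not tested.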

How the data were processed

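Poly(A) RNA of 6 samples of mouse ovarian surface epithelial cells was sequenced, 18690235 to 30304033 counts each. The table deposited by the authors gives raw counts per gene, and its column names point to BAM alignments. GRCm38, sleuth 0.30.1 and kallisto 0.46.2 are listed, with no roles, in the submitters' processing notes. Aligner, counter, strand setting and the handling of multiply mapping reads: not given in the sources used here. Gene IDs were matched without version to GENCODE mouse release 21 (GRCm38), and 48058 of 48440 matched.

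Counts were filtered with filterByExpr (at least 0.377 CPM in 3 libraries), scaled with TMM, then fitted in edgeR 4.0.16 (robust quasi-likelihood test, group as the one term) in R 4.3.3, with Benjamini-Hochberg adjustment over 14811 genes. The SE was taken as the absolute log2 change over the root of the F statistic. Ratios used counts per kilobase of union exon length and exact permutation tests in scipy 1.17.1. This fit was tested on simulated data. Replicate pairs differed by more than sampling noise (chi-square per gene 2.04 to 4.27), so all 6 libraries were kept. Copies were searched with minimap2 2.31.

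Members and lists were chosen with earlier results of these data known. Named genes are the members, Lats1 and Lats2, tested filament genes, list genes with the smallest adjusted p (up to 4 per list, 2 per marker list) and the 3 genes most like each member of at least 5 CPM; a few others are examples chosen after seeing their values, and 1 gene the rule names is not reported here. Alternatives were other scalings and filters, DESeq2 1.42.0, no robust dispersion, a replicate block, other lengths and each library left out; summing Krt8 with Krt8-ps and using all keratins were added after seeing the data.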

Additional observations from a re-analysis of the deposited data

How the results depend on the processing

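Over the alternatives run, 302 values kept their direction and their side of the threshold, or stayed within 1.5 times for counts of genes. The exceptions were Krt18 and a list count. The 302 include the ratios, whose exact tests cannot fall under the threshold with so few libraries. For the ratios only the direction was therefore checked. As the groups did not overlap, leaving out a library or pairing replicates could not reverse it. Nor could other lengths for a ratio of 1 gene to another, so these settings add nothing for the ratios. Krt18 was no longer called with library totals (0.043, adjusted p = 0.182), without Ad-GFP replicate 1 or without Ad-Cre-GFP replicate 1. Leaving out each library in turn gave 0.0665 to 0.0968, and the number of members called higher was then 3 to 4. The count of other filament genes called lower was 0 to 1 when each library was left out, the 1 being Lmna without Ad-GFP replicate 3. The other members ranged over all leave-one-out fits from -1.61 to -1.56 for Krt19, -0.21 to -0.16 for Krt8, 0.37 to 0.43 for Vim, 0.93 to 1.19 for Nes and 1.32 to 1.51 for Krt7. Scaling by library totals moved the median of all genes by -0.0358, more than the other scalings. Among marker genes, Lhx9 lost its call under 2 and Notch3 under 4 alternatives.

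Replicate numbers are shared by both groups. Deviations of same-numbered libraries correlated at 0.0488, 0.051 and 0.00502, and those of differently numbered libraries at -0.0704 to 0.0227. All of these values are small, and same-numbered libraries were not taken as pairs, though a weak pairing is not excluded. With the replicate block 5130 genes were called higher and 5348 lower, against 5040 and 5304, and the block changed no call of a member (Krt18 0.08, adjusted p = 0.0141, edgeR).

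Krt7, Nes and Des had 1 to 176 counts per library, which limits their precision, and the ratio tests cannot reach p below 0.1 with 3 libraries a group, 0.2 with 1 left out or 0.25 with 3 pairs.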
